A study of Mus musculus with 18 samples.

Results

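C-type lectin receptors of the Dectin and Clec4 families were examined in mouse eosinophils cultured with apoptotic cells. The 8 genes were taken by name, and all 8 were found among the 54446 genes of the deposited table: Clec7a, Clec4n, Clec4e, Clec4d, Clec12a, Clec4a2, Clec4a1 and Clec4a3. All 8 also passed the filter on low values, which kept genes averaging 10 or more normalized counts among the libraries fitted, in every fit. Eosinophils came from the peritoneal cavity of Il5Tg mice, whose T cells overproduce interleukin 5 from a transgene, and the labels give the strain as C57BL/6. Every group was cultured with apoptotic cells (ACs), which were wild-type thymocytes killed with dexamethasone, after beads against T and B cells had removed those cells, and Siglec-F beads were used to repurify the eosinophils ahead of RNA extraction. The groups of the Type 1 experiment were ACs with nothing added, E. coli + ACs, IFN-γ + ACs, and the combination of these, IFN-γ + E. coli + ACs. Those of the IL-4 experiment were ACs with nothing added and IL-4 + ACs. For the combination the paper describes IFN-γ first and E. coli after it, so its order and timing cannot be told apart from the combination itself. Each of the 6 groups had 3 libraries, which gives 18 libraries in all, and each stimulus was compared with the ACs libraries of its own experiment. Cultures without ACs are not analysed here, so no value below measures the response to ACs themselves, and eosinophils of IL-5-transgenic mice need not respond as those of wild-type mice do.

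These receptors are type II membrane proteins whose extracellular lectin-like domain binds sugars or lipids of microbes and of damaged cells. Dectin-1 (Clec7a) binds fungal β-glucan and signals through its own cytoplasmic tyrosine motif, while Dectin-2 (Clec4n), Mincle (Clec4e) and MCL (Clec4d) signal through the adaptor chain FcRγ, the product of Fcer1g, and then through the kinase Syk and the Card9, Bcl10 and Malt1 complex. MICL (Clec12a) and DCIR (Clec4a2) carry an inhibitory tyrosine motif that recruits phosphatases and dampens myeloid cell activation, and Clec4a1 and Clec4a3 encode close relatives of DCIR.

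All 8 genes lie on chromosome 6 of GRCm38, in 2 groups. From Clec4a1, which starts at 122921848, to Clec4e, which ends at 123289870, the 6 Clec4 genes span 368 kb in the order Clec4a1, Clec4a3, Clec4a2, Clec4n, Clec4d and Clec4e. Clec4d (123262111 to 123275265, plus strand) and Clec4e (123281789 to 123289870, minus strand) face each other across 6523 bases. Clec12a (129342691 to 129365303, plus strand) and Clec7a (129461591 to 129472779, minus strand) lie 6.05 Mb further on. The annotation calls Clec7a a polymorphic pseudogene and the other members protein coding. CEL-Seq2 reads come from transcript 3' ends, and in the last 500 bases of the annotated transcripts 6 members shared no stretch of 50 bases with another gene. For Clec4a2 8.96% of such stretches were shared, with Clec4a4 and Clec4b1, and for Clec4n 1.1% were shared, with Gm44147. The paper counted only reads that mapped uniquely, so a part of the reads of these 2 genes may be left out of the counts.

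The sequences around the annotated starts of 4 members are shown: Clec12a, which fell most in the Type 1 experiment, Clec4e, which rose most with E. coli, and Clec4d and Clec7a, which fell and rose most with IL-4. No window was matched for Clec4n. They are RefSeq sequences of GRCm38.p6, from 250 bases before to 50 bases after the start, written 5′ to 3′ on the strand of the gene: Clec12a at chr6:129349994-129350293 (plus strand), Clec4e at chr6:123289822-123290121 (minus strand), Clec4d at chr6:123261857-123262156 (plus strand) and Clec7a at chr6:129472730-129473029 (minus strand). Capitals mark matches, on either strand, to TTGCNNAA (C/EBP), TTCNNNGAA (STAT), the STAT6 form of that motif with 1 more base between its arms, and GAGGAA (PU.1).
Clec12a: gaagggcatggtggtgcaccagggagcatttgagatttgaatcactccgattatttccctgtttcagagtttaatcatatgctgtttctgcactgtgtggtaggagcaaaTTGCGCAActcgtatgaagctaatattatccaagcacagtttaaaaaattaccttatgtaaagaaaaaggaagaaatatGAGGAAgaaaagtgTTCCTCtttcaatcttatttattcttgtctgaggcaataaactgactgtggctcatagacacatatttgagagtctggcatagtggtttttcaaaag
Clec4e: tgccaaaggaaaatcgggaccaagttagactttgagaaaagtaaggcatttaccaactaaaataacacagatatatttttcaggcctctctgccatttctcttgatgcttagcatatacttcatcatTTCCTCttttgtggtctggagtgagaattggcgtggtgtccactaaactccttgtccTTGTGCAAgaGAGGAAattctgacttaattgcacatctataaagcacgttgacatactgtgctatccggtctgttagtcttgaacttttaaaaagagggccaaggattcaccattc
Clec4d: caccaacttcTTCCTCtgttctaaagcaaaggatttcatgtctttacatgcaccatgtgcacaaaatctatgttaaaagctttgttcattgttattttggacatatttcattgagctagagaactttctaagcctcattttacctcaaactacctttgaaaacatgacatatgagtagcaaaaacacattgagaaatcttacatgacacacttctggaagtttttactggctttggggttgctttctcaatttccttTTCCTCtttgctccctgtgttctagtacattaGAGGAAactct
Clec7a: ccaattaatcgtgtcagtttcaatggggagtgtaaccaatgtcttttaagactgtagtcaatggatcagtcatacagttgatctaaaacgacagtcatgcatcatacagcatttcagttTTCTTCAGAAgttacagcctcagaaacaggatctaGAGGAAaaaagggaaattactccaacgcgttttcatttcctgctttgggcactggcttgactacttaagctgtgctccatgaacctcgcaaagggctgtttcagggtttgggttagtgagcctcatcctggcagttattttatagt
A match to the C/EBP letters was present in the windows of Clec12a and Clec4e, which moved in opposite directions in the Type 1 experiment, and in 10.8% of all 32851 RefSeq windows of this length. Clec7a and Clec4a1 held the STAT6 letters, which 6.95% of all windows hold, and Clec4a2 held the STAT letters, which 8.3% hold. The PU.1 letters were found in the first RefSeq window of 5 of the 7 members that have one (Clec4a1, Clec4d, Clec4e, Clec12a and Clec7a), against 28.3% of all windows. A match is a description of the letters only. RefSeq and the gene annotation used above differ in the starts of Clec12a and Clec4a2. The Clec12a window lies inside its gene, which starts at 129342691. The Clec4a2 window (123122440 to 123122739) lies inside its gene too (123106428 to 123143999). AP-1 letters (TGANTCA) were present in 2 of the 7 windows, letters of the interferon-stimulated response element in 1, that of Clec4d, where they overlap a PU.1 match, and those of the NF-kB motif in none, against 7.81%, 3.44% and 1.47% of all windows.

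Reads on genes numbered 779421 in the shallowest library, 4461121 at the median and 7782072 in the deepest, and a member had between 17 and 2134 reads in a library. Both replicate 3 libraries of the IL-4 experiment were shallow, with 849705 reads (IL-4 + ACs) and 779421 reads (ACs), so that 1 read stood for a normalized count of 5.14 and 5.36. In every library the eosinophil markers Siglecf and Ccr3 were high, with lowest values of 1514 and 2623, while the granule genes Epx and Prg3 stayed at or below 25.7 and 26.8. The sum of 10 eosinophil markers was at 1.23 times the ACs mean with E. coli, 0.703 with IFN-γ, 1.05 with both and 1.3 with IL-4. Only the sum with both overlapped with ACs. All 10 macrophage markers were detected in every group at a mean of at least 10, led by C1qc. The summed normalized count of these 10 was 12812 to 16602 with ACs in the Type 1 experiment, 5167 to 6697 with E. coli, 19618 to 28381 with IFN-γ and 6140 to 6681 with both. In the IL-4 experiment it was 14965 to 25376 with IL-4 and 18767 to 28335 with ACs alone, with overlap, and the highest sum of each of these groups was that of its shallow replicate 3. In bulk RNA fewer cells of a type and less RNA per cell cannot be told apart, and the part of macrophage RNA in the results below was not tested. Past the threshold, 6 of the 10 macrophage markers were lower and none higher with E. coli, 1 lower and 4 higher with IFN-γ, 6 lower and 2 higher with both, and 2 lower and none higher with IL-4. Of all genes tested, 10.3%, 21.4%, 31.9% and 1.09% were past it in either direction. The sum of 10 neutrophil markers, which did not overlap with ACs for any stimulus, was 137 to 157 with ACs, 719 to 877 with E. coli, 243 to 353 with IFN-γ and 408 to 465 with both, or 5.2, 1.92 and 2.87 times the ACs mean, and 1.48 times with IL-4. With E. coli most of it was S100a8 (254 to 383) and Cxcr2 (266 to 367), while Elane and Mpo were at 0 and Ltf, Camp and Ly6g at most at 7.04. With IL-4 S100a8 was at 10.3 to 20.6 against 28.6 to 59.0 with ACs, and Cxcr2 at 108 to 147 against 24.1 to 69.7. Markers of thymocytes, the source of the ACs, summed to 45.5 to 179 over all libraries. Those of dendritic cells were at 1.8 times the ACs mean with E. coli, 0.861 with IFN-γ, 0.867 with both and 0.941 with IL-4, and those of mast cells, which summed to at most 67.6, at 2.04, 3.2, 3.57 and 0.441 times.

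**Figure D1:**
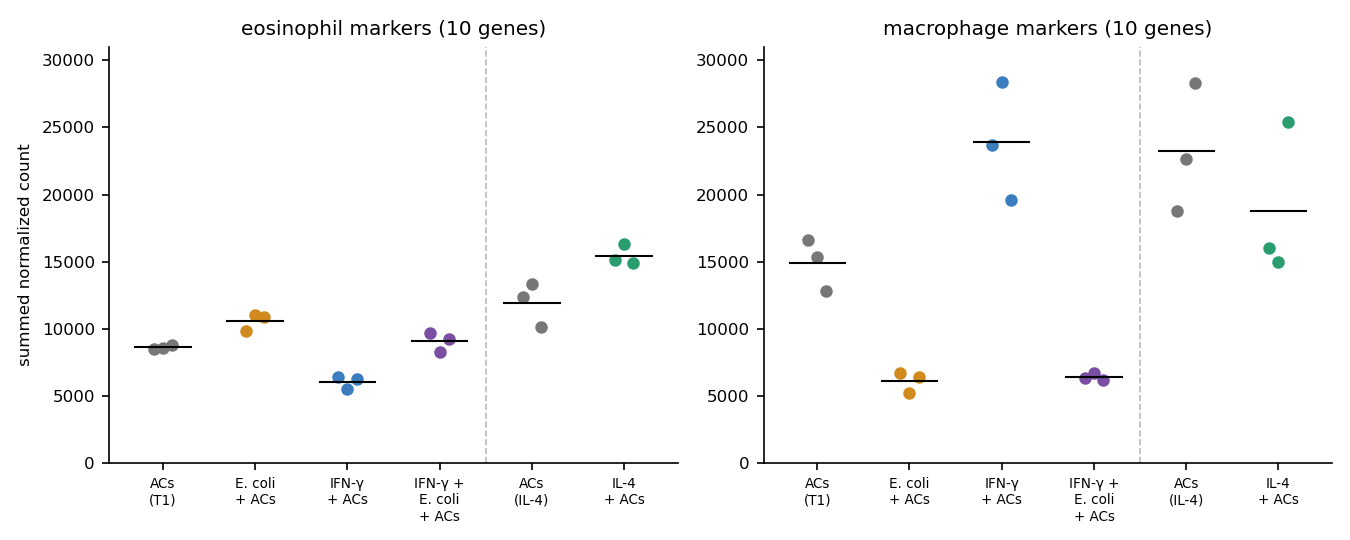
Summed normalized count of 10 eosinophil markers (left) and 10 macrophage markers (right) in each library, with the 6 groups on the horizontal axis, 3 points per group and a line at the mean. Macrophage marker sums with E. coli and with both stimuli, at most 6697, lay below every ACs library of the Type 1 experiment, whose lowest was 12812, and those with IFN-γ lay above them.

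In the Type 1 experiment Clec4e and Clec4n rose with each of the 3 stimuli and Clec12a fell with each. Of 5 neutrophil markers that could be tested, 3 were also higher with E. coli, 3 with IFN-γ and 4 with both, and none was lower, and their part in the rises of Clec4e and Clec4n was not tested. Past the threshold here means a limma p, adjusted by Benjamini-Hochberg over all genes, under 0.05 together with a 1.5-fold or larger change. With E. coli 2 members were past it higher and 1 lower, against 5.05% and 5.25% of all genes tested (10.3% in either direction). With IFN-γ 3 were higher and 4 lower, against 11.4% and 9.96% (21.4%), and with both stimuli 3 were higher and 3 lower, against 14.7% and 17.2% (31.9%). The median log2 change of the 8 members was 0.17 with E. coli, -0.13 with IFN-γ and -0.07 with both, beside medians of -0.004, 0 and -0.05 over all genes tested. Changes in both directions lie behind these medians, and the 3 comparisons share the same ACs libraries. Rescaling the libraries to a common upper quartile moved the median of all genes to 0.10, 0.12 and 0.23 and the share of called genes that were higher from 49%, 53.4% and 46.1% to 64.6%, 66.2% and 71.1%, but left the counts of members past the threshold at 2 and 1 with E. coli and at 3 and 3 with both stimuli, and gave 4 and 4 with IFN-γ, where Clec7a was added.

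**Figure D2:**
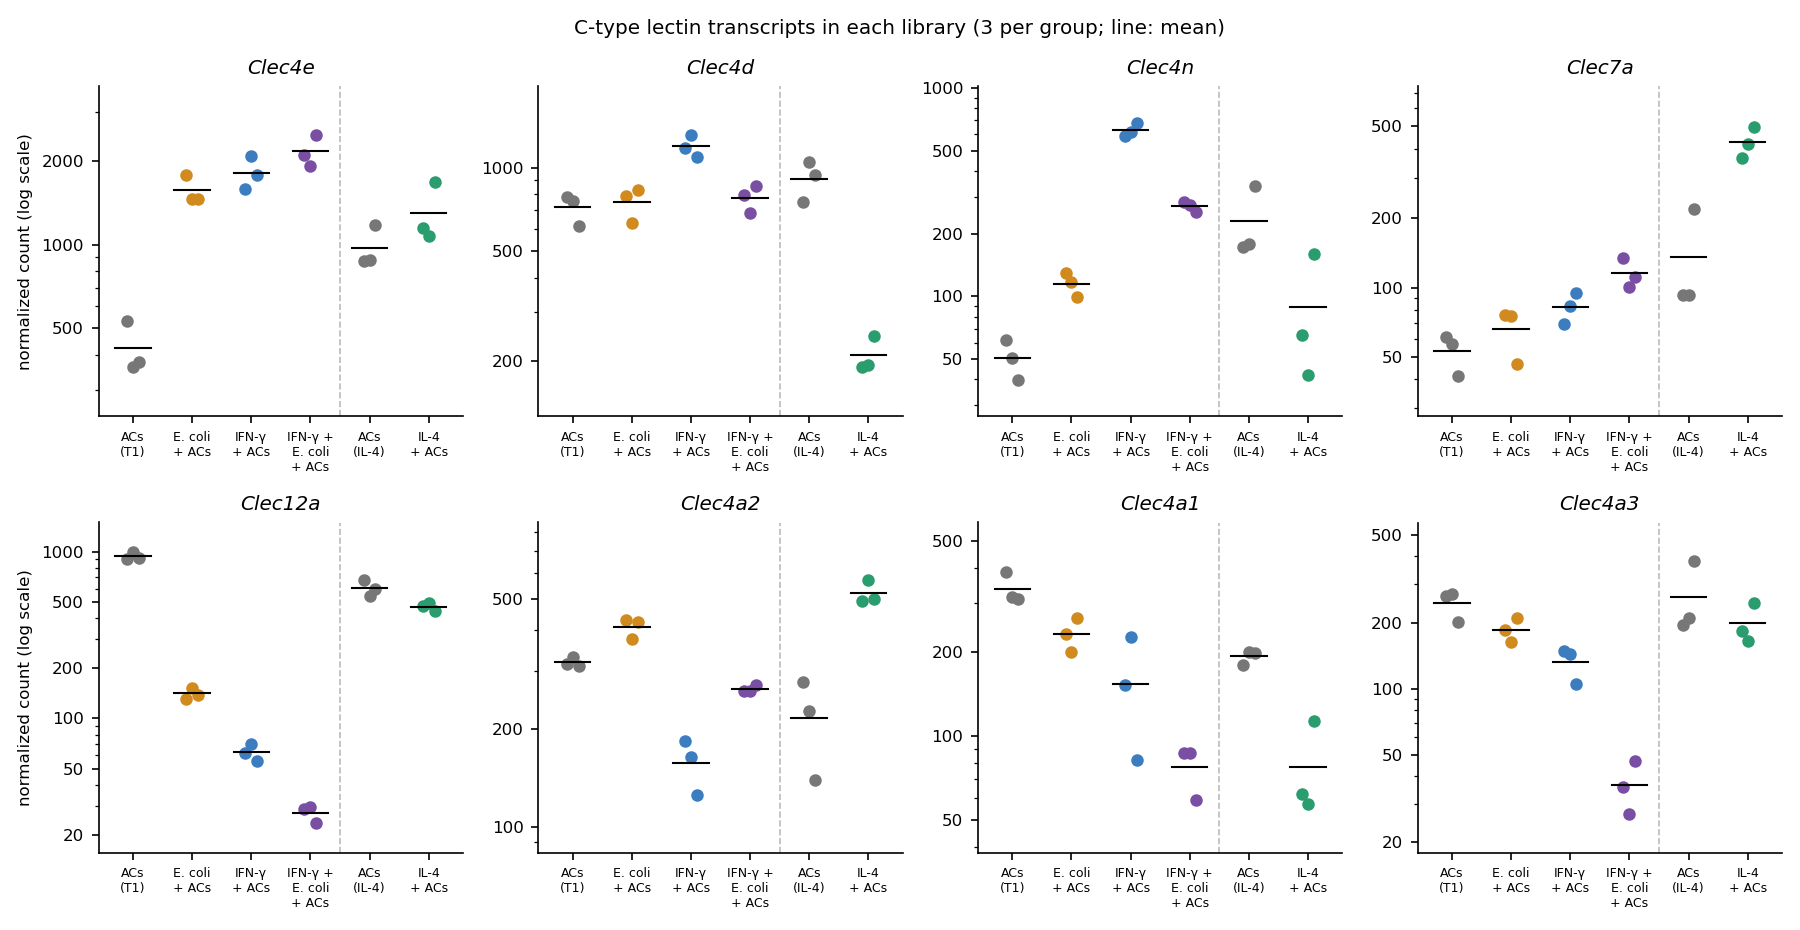
Normalized count of each of the 8 lectin genes in every library, on a log scale, in the 4 groups of the Type 1 experiment (left of the dashed line) and the 2 of the IL-4 experiment (right), with a line at each group mean. Clec4e and Clec4n are higher and Clec12a is lower in all 9 stimulated libraries of the Type 1 experiment than in its ACs libraries.

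Mincle, encoded by Clec4e, senses mycobacterial cord factor and a nuclear protein released by dying cells. Normalized counts of Clec4e were 530, 361 and 378 in the 3 ACs libraries of the Type 1 experiment, 1786, 1464 and 1458 with E. coli, 1591, 2078 and 1781 with IFN-γ, and 2108, 1919 and 2483 with both. Every stimulated library was above every ACs library, the E. coli and IFN-γ libraries overlapped each other, and so did those with IFN-γ and with both. Groups did not overlap in 5 of the 8 members with E. coli, 8 with IFN-γ and 7 with both, against 38.3%, 42.9% and 48.8% of all genes. The log2 change of Clec4e was 1.90 ± 0.15 (SE) with E. coli (adjusted p = 6.3e-08), 2.11 ± 0.15 with IFN-γ (3.5e-09) and 2.37 ± 0.15 with both (4.5e-10), that is 3.71, 4.29 and 5.13 times the mean with ACs. Between IFN-γ + E. coli + ACs and IFN-γ + ACs the difference was 0.26, with a 95% interval from -0.06 to 0.57 (adjusted p = 0.25), and between both stimuli and E. coli it was 0.47 (adjusted p = 0.03), which is less than 1.5-fold.

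MCL, encoded by Clec4d, pairs with Mincle at the cell surface and is needed for its full display there. Clec4d had normalized counts of 782, 755 and 615 with ACs, 788, 632 and 828 with E. coli, 1181, 1312 and 1088 with IFN-γ, and 794, 688 and 857 with both. Only the IFN-γ libraries stood clear of the ACs libraries. The log2 change with IFN-γ was 0.74 ± 0.14 (adjusted p = 0.00043), while that with E. coli was 0.06 (95% interval -0.23 to 0.35) and that with both was 0.12 (-0.16 to 0.41). With both stimuli Clec4d was lower than with IFN-γ alone by a log2 difference of -0.62 ± 0.14 (adjusted p = 0.0034).

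Dectin-2, encoded by Clec4n, recognises fungal mannan. Its transcript had the largest rise of the 8, and it rose most with IFN-γ alone. Counts were 61.8, 50.7 and 40.0 with ACs, 129, 118 and 99.4 with E. coli, 590, 616 and 681 with IFN-γ, and 284, 276 and 255 with both. The 4 groups did not overlap, and they stood in the order ACs, E. coli, both stimuli, IFN-γ. The change was 2.27 times the ACs mean with E. coli (log2 1.18 ± 0.17, adjusted p = 8.1e-05), 12.4 times with IFN-γ (3.62 ± 0.17, 7.3e-12) and 5.35 times with both (2.42 ± 0.17, 2.1e-09). Adding E. coli to IFN-γ thus went with a lower level, by -1.21 ± 0.17 (adjusted p = 6.3e-05). The level with both was higher than that with E. coli alone, by 1.24 ± 0.17 (adjusted p = 3e-05). The macrophage marker sum, most of it C1qc and C1qb, was at 1.6 times the ACs mean with IFN-γ, and at 0.407 and 0.427 times with E. coli and with both. Single macrophage markers differed from the sum: Marco, a scavenger receptor, was 620 to 873 with ACs, 405 to 625 with E. coli, 2824 to 3676 with IFN-γ and 1236 to 1259 with both. Mertk was 221 to 294 with ACs, 168 to 242 with E. coli, 702 to 1020 with IFN-γ and 314 to 459 with both. Marco and Mertk too were thus highest with IFN-γ, as was Timd4 (237 to 314 against 115 to 153 with ACs). Vsig4 was lower with IFN-γ, at 304 to 391 against 473 to 655 with ACs.

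Dectin-1, encoded by Clec7a, changed less in the Type 1 experiment. Its counts were 61.0, 57.3 and 41.6 with ACs, 76.2, 75.2 and 46.6 with E. coli, 69.9, 83.7 and 94.4 with IFN-γ, and 134, 100.2 and 112 with both. The E. coli libraries overlapped the ACs libraries, the IFN-γ libraries lay just above them and those with both stimuli lay further above. The log2 change passed the threshold with both (1.11 ± 0.24, adjusted p = 0.0011) and not with IFN-γ (0.63 ± 0.24, adjusted p = 0.055) or E. coli (0.29 ± 0.24, adjusted p = 0.5). With the common upper quartile the IFN-γ value was 0.75 and its adjusted p was 0.023.

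Clec12a, the receptor for uric acid crystals from dead cells, had the largest fall. Its normalized count was 908, 997 and 914 with ACs, 131, 153 and 139 with E. coli, 62.0, 69.9 and 55.4 with IFN-γ, and 28.5, 29.3 and 23.5 with both. The 4 groups did not overlap and each was less spread than the distance to the next. The mean with E. coli was 0.150 times that with ACs (log2 -2.73 ± 0.17, adjusted p = 2.7e-09), with IFN-γ 0.0664 times (-3.90 ± 0.17, 2.3e-12) and with both 0.0288 times. Both stimuli together gave less than IFN-γ alone, by -1.18 ± 0.17 (adjusted p = 6.9e-05), and less than E. coli alone, by -2.34 ± 0.17 (adjusted p = 6.6e-09). The macrophage marker sum was lower too with E. coli and with both and higher with IFN-γ, but the list went both ways: Marco and Mertk were higher with both stimuli, and Vsig4 was lower with IFN-γ (304 to 391 against 473 to 655). The summed count of 5 B cell markers, most of it Ighm, moved in the same direction, from 901 to 1040 with ACs to 307 to 317 with E. coli, 97.6 to 179 with IFN-γ and 151 to 172 with both, and the part of either cell type in the fall of Clec12a was not tested.

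DCIR, encoded by Clec4a2, moved with the stimulus. Its counts were 315, 332 and 311 with ACs, 430.3, 378 and 425 with E. coli, 183, 164 and 125 with IFN-γ, and 261, 260.2 and 273 with both. The E. coli libraries lay above all ACs libraries and the other 2 groups below them. Only the change with IFN-γ was past the threshold, at 0.493 times the ACs mean (log2 -1.03 ± 0.15, adjusted p = 2.7e-05), while those with E. coli (0.36, adjusted p = 0.12) and with both (-0.27, adjusted p = 0.16) were not, and the last of these was 0.02 with the common upper quartile. With both stimuli the level was above that with IFN-γ, by 0.76 ± 0.15 (adjusted p = 0.0011), and below that with E. coli, by -0.63 ± 0.15 (adjusted p = 0.0039). Rescaling to a common upper quartile took the second difference to -0.46, less than 1.5-fold.

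The DCIR relatives Clec4a1 and Clec4a3 were lowest with both stimuli. Clec4a1 had counts of 388, 314 and 309 with ACs, 233, 200.3 and 264 with E. coli, 153, 227 and 82.1 with IFN-γ, and 87.0, 86.7 and 59.3 with both. Its E. coli, IFN-γ and combined libraries were all below the ACs libraries, but the IFN-γ libraries spread over the range of the groups beside them. The log2 change was -1.24 ± 0.26 with IFN-γ (adjusted p = 0.0016) and -2.12 ± 0.26 with both (adjusted p = 3.7e-06), and with E. coli -0.54 ± 0.26 (adjusted p = 0.21). Clec4a3 had counts of 264, 270.3 and 201 with ACs, 185, 163 and 210.2 with E. coli, 148, 144 and 105 with IFN-γ, and 35.6, 26.9 and 46.9 with both. The combined group stood well below the other 3, the E. coli libraries overlapped the ACs libraries, and the IFN-γ libraries lay between. Clec4a3 changed by -0.89 ± 0.22 with IFN-γ (adjusted p = 0.0043) and by -2.74 ± 0.22 with both (adjusted p = 8.8e-09), and with E. coli by -0.39 ± 0.22 (adjusted p = 0.27). The macrophage marker sum was also lower with both stimuli, at 0.427 times the ACs mean against 0.149 for Clec4a3 and 0.230 for Clec4a1, but it was higher with IFN-γ, where both genes fell.

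Set against IFN-γ alone, both stimuli left 1 member higher (Clec4a2) and 5 lower (Clec12a, Clec4a1, Clec4a3, Clec4d and Clec4n), against 5.96% and 8.61% of all genes tested, and the groups did not overlap for 6 members, against 29.6% of all genes. Without replicate 2 of the IFN-γ group, the members lower were 3, as Clec4a1 (log2 -0.55, adjusted p = 0.15) and Clec4d (-0.55, adjusted p = 0.024, less than 1.5-fold) were lost. Of the macrophage markers 9 of 10 were also lower in this comparison, beside the same 8.61% of all genes. Relative to E. coli alone, 2 members were higher (Clec7a and Clec4n) and 4 lower (Clec12a, Clec4a1, Clec4a2 and Clec4a3), against 9.79% and 9.57%, and the groups did not overlap for 7 members, against 39.3%. Without replicate 3 of the E. coli group or without replicate 1 of the combined group, Clec7a (main value 0.82, adjusted p = 0.016) was at 0.59 and 0.71 with adjusted p = 0.11 and 0.068, which leaves 1 member higher. The common upper quartile moved the share of called genes that were higher from 40.9% to 64.9% against IFN-γ and from 50.6% to 71.6% against E. coli.

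The change with both stimuli was then set against the sum of the changes with E. coli alone and IFN-γ alone, on the log2 scale, through the interaction term. For 5 members the interaction was past the threshold, 1 of them positive and 4 negative, against 3.16% and 4.28% of all genes tested (7.44% in either direction), with a median of -0.51 over the members and -0.03 over all genes. Clec4n rose by 2.42 with both while the single changes sum to 4.80, an interaction of -2.39 ± 0.24 (adjusted p = 5.9e-06). Clec4e rose by 2.37 against a sum of 4.01, an interaction of -1.65 ± 0.21 (adjusted p = 7.3e-05). For both genes the combination was thus less than the sum. Clec12a fell to -5.07 against a sum of -6.62, an interaction of 1.55 ± 0.24 (adjusted p = 0.00047). Clec4a3 differed from these, as its combined change of -2.74 exceeded in size the sum of -1.28, with an interaction of -1.46 ± 0.30 (adjusted p = 0.0059). The interaction of Clec4d, -0.68 ± 0.19 (adjusted p = 0.038), was lost under 11 of 22 alternatives, among them each of 8 single libraries left out (adjusted p up to 0.12). Clec7a (0.19), Clec4a1 (-0.35) and Clec4a2 (0.40) had 95% intervals that included 0. Of the 10 macrophage markers 4 had a negative interaction past the threshold and none a positive one.

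**Figure D3:**
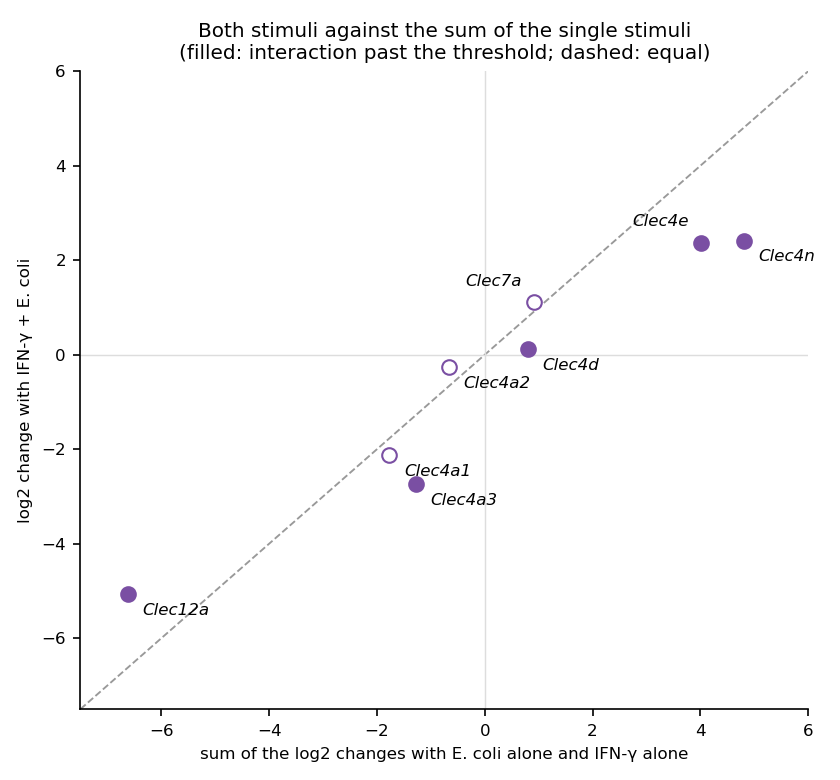
For each member, the log2 change with IFN-γ + E. coli (vertical axis) against the sum of the log2 changes with E. coli alone and IFN-γ alone (horizontal axis), with a dashed line where they are equal and filled points where the interaction was past the threshold. Clec4n (4.80 and 2.42) and Clec4e (4.01 and 2.37) lie below the line on the right, and Clec12a (-6.62 and -5.07) lies above it on the left.

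IL-4, the cytokine of type 2 immunity, gave another pattern. Clec7a and Clec4a2 rose and Clec4d and Clec4a1 fell, so that 2 members were past the threshold higher and 2 lower, against 0.74% and 0.347% of all genes tested. Groups did not overlap in 6 of the 8 members, against 17.3% of all genes. The median log2 change was -0.36 over the members and -0.008 over all genes. Clec4d was the firmest of these calls. Its counts were 751, 1043 and 944 with ACs and 190.0, 194 and 247 with IL-4, which is far apart in every library. The log2 change was -2.11 ± 0.18 (adjusted p = 4e-04), 0.230 times the ACs mean, and it stayed past the threshold without any 1 library (adjusted p from 0.00091 to 0.0034).

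Clec7a had counts of 93.2, 92.6 and 219.8 with ACs and 364, 420 and 499 with IL-4. The groups did not overlap, and the shallow replicate 3 was the highest library of each. The log2 change was 1.77 ± 0.31 (adjusted p = 0.028), 3.16 times the ACs mean. Clec4a2 had counts of 279, 227 and 139 with ACs and 492, 571 and 499 with IL-4, a change of 1.32 ± 0.24 (adjusted p = 0.030) or 2.42 times. Its ACs replicate 3 was the lowest library. Clec4a1 had counts of 180.5, 201 and 198 with ACs and 62.0, 57.4 and 113 with IL-4, a change of -1.37 ± 0.27 (adjusted p = 0.042) or 0.401 times. In leave-one-out fits the call was lost for Clec7a without 5 of the 6 libraries, for Clec4a1 without 5 and for Clec4a2 without 4, with adjusted p up to 0.13, 0.19 and 0.099, while the log2 changes stayed between 1.56 and 2.18, between -1.68 and -1.19, and between 1.04 and 1.54. The number of members higher became 0 without IL-4 replicate 1, 2 or 3 or without ACs replicate 2 and 1 without ACs replicate 1, and the number lower became 1 without IL-4 replicate 1 or 2 or any 1 ACs library. Without both shallow libraries, however, the changes were 2.06 (adjusted p = 4.5e-06) for Clec7a, -1.66 (1e-04) for Clec4a1, 1.07 (0.00066) for Clec4a2 and -2.20 (4.5e-06) for Clec4d.

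Of the 10 macrophage markers, 2 were past the threshold with IL-4, both lower, against 0.347% of all genes lower. Marco fell to 129 to 190 from 795 to 1265 with ACs (log2 -2.58 ± 0.22, adjusted p = 4e-04) and Vsig4 to 341 to 473 from 694 to 1458 (-1.36 ± 0.25, adjusted p = 0.031). The other 8 were not past it, and the median log2 change of the 10 was -0.27. Among those 8, Timd4 lay above ACs without overlap, at 195 to 196 against 81.2 to 150. The part of macrophage RNA in the falls of Clec4d and Clec4a1 and the lower values of Clec4n was not tested.

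The other 4 members were not past the threshold with IL-4. Clec4n had counts of 172, 179 and 338 with ACs and 65.5, 42.2 and 159 with IL-4, lower in every library but widely spread within each group. Its log2 change was -1.51 ± 0.44 (adjusted p = 0.26), and it was past the threshold in edgeR on the recovered reads (-1.61, adjusted p = 0.034) and without both shallow libraries (-1.72, adjusted p = 0.00056). Clec12a had counts of 679, 543 and 595 with ACs and 472, 491 and 442 with IL-4, a change of -0.37 with a 95% interval from -0.68 to -0.05 (adjusted p = 0.44). This interval does not reach the size of its fall with any Type 1 stimulus. For Clec4e the counts were 869, 879 and 1174 with ACs and 1146, 1076 and 1681 with IL-4 (log2 0.40, adjusted p = 0.55), and for Clec4a3 they were 194, 210.2 and 381 with ACs and 183, 165 and 247 with IL-4 (log2 -0.35, adjusted p = 0.72). Both genes overlapped between groups, and replicate 3 was the highest library of each group for both.

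**Figure D4:**
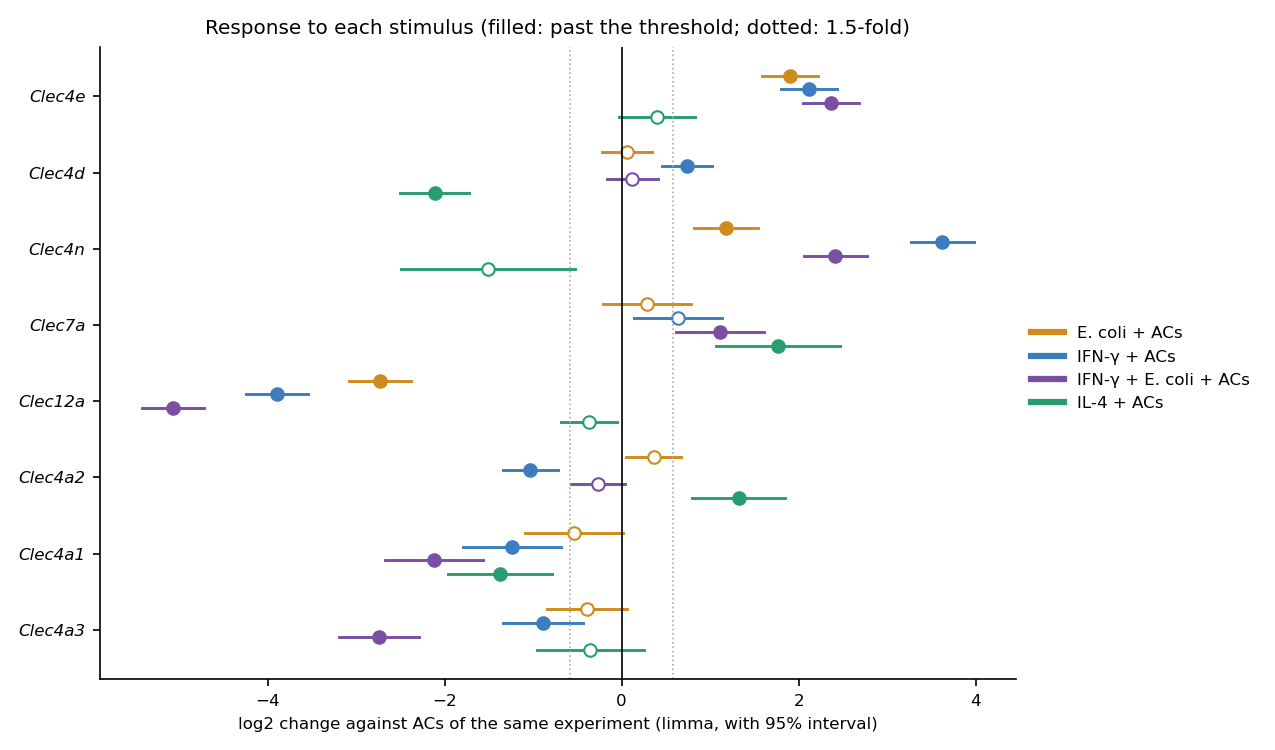
Log2 change of each member against the ACs libraries of the same experiment (horizontal axis), with its 95% interval, for the 4 stimuli, with filled points past the threshold and dotted lines at 1.5-fold. Clec4d is at -2.11 with IL-4 and 0.74 with IFN-γ, Clec4a2 at 1.32 and -1.03, and Clec12a at -0.37 and -3.90.

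Whether the response to IL-4 differed from each Type 1 response was tested on all 18 libraries, each response against its own ACs, at an adjusted p under 0.05. IL-4 and the Type 1 stimuli were given in different experiments, so in these differences stimulus cannot be told apart from experiment. Starting levels differed too: Clec4e with ACs was 361 to 530 in the Type 1 experiment and 869 to 1174 in the IL-4 experiment. From the response to E. coli, IL-4 differed higher for 3 members and lower for 3, against 1.89% and 2.57% of all genes (4.47% in either direction). From that to IFN-γ it differed higher for 2 and lower for 3, against 6.31% and 8.37% (14.7%), and from that to both stimuli higher for 3 and lower for 3, against 9.88% and 11.4% (21.3%). In the last of these, 46.5% of called genes were higher, and 25.4% with the common upper quartile. Clec12a was higher in all 3 differences (2.36, 3.53 and 4.70 on the log2 scale, the largest adjusted p 4.8e-07), as was Clec4a2 (0.96, 2.36 and 1.59, the largest adjusted p 0.043). Clec4d (-2.17, -2.85 and -2.23), Clec4e (-1.50, -1.71 and -1.97) and Clec4n (-2.69, -5.13 and -3.92) were lower in all 3. For Clec7a the difference was past the threshold against E. coli (1.48, adjusted p = 0.034) and not against IFN-γ (1.13, adjusted p = 0.061, but 0.019 in edgeR, 0.02 in DESeq2 and 0.005 without both shallow libraries) or both (0.66, adjusted p = 0.26, but 0.046 without both shallow libraries), and for Clec4a3 it was past it against both stimuli only (2.39, adjusted p = 4e-05). Clec4a1, which fell with IL-4 and with IFN-γ, had differences of -0.84, -0.14 and 0.74, none past the threshold. The differences of Clec7a and Clec4a2 from E. coli were lost under 8 and 15 of 27 alternatives, and 1 member was left higher without ACs replicate 1 or 2 of the Type 1 experiment, E. coli replicate 3, or IL-4 replicate 2 or 3.

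Clec4e and the adjacent gene of its partner, Clec4d, were compared library by library, as the log2 ratio of Clec4e to Clec4d relative to that with ACs, a pair chosen after its values were seen and therefore not tested. The ratio was higher by 1.84 ± 0.22 (SD, n = 3) with E. coli, 1.38 ± 0.15 with IFN-γ, 2.25 ± 0.06 with both and 2.51 ± 0.15 with IL-4. The lowest stimulated library, at 1.20, was above the highest ACs library, at 0.22. Clec4e rose in each Type 1 comparison, with Clec4d rising less under IFN-γ, and with IL-4 Clec4d fell. For Clec4a2 relative to Clec4a1, chosen in the same way, the values were 0.90 ± 0.12, 0.20 ± 0.55, 1.85 ± 0.35 and 2.70 ± 0.60, of which the IFN-γ libraries overlapped the ACs libraries.

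**Figure D5:**
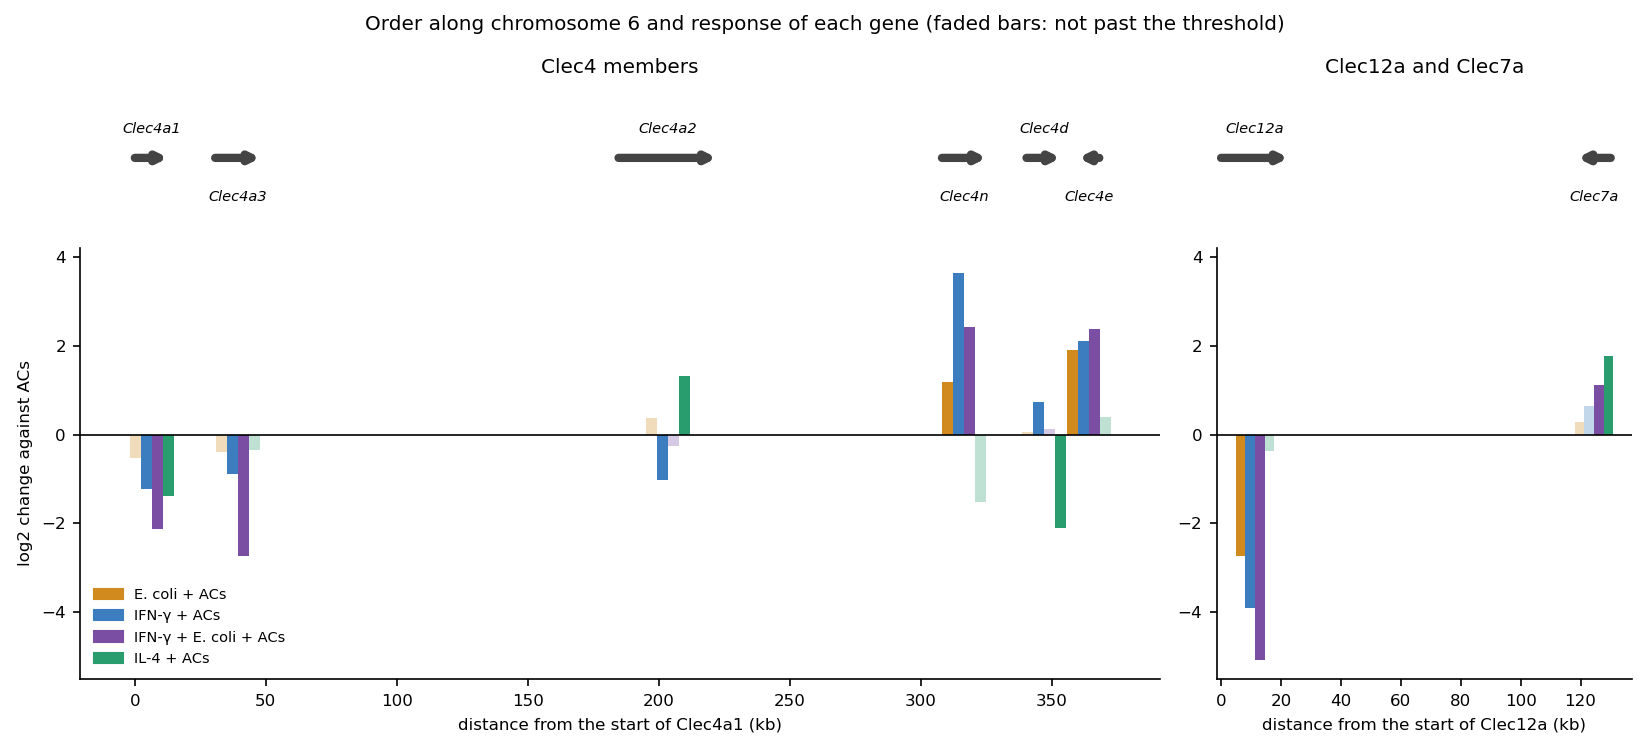
Order and direction of the 6 Clec4 genes (left) and of Clec12a and Clec7a (right) as arrows, over distance in kb from the start of the first gene of each panel, with bars for the log2 change of each gene with the 4 stimuli, faded where not past the threshold. With IL-4 the adjacent genes Clec4d and Clec4e are at -2.11 and 0.40, and Clec4a1 and Clec4a2 at -1.37 and 1.32.

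Across the 18 libraries, each centred on the ACs mean of its experiment, Clec12a and Clec4e had a Pearson r of -0.96 and Clec4a2 and Clec4d one of -0.88, while Clec4e and Clec4n had 0.83 and Clec12a and Clec4a3 0.82. These values describe libraries that share their groups and depth, and no p is given. Among the 6906 genes with a mean of at least 50, those most like Clec12a were Krt80 (r = 0.99), Bank1 (0.98) and Sytl1 (0.98), and those most like Clec4e were Slc7a2 (0.98), Gclm (0.97) and Tma16 (0.97). Clec4n was most like Hmox1 (0.98), Rasa4 (0.97) and Slamf7 (0.97), and Clec4d was most like St3gal5 (0.95), Gstm1 (0.94) and Fpr2 (0.93). Clec4a3 was followed by Neu1 (0.94) and Cyp4f13 (0.92), Clec4a2 by Prpsap2 (0.92), Treml2 (0.91) and Fcgr2b (0.91), Clec4a1 by Atp13a2 (0.92), H6pd (0.89) and Tmem176b (0.88), and Clec7a by Cystm1 (0.87), Rpl23a (0.86) and Katnbl1 (0.86).

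Of 20 genes that carry the signal of these receptors, 19 could be tested. Past the threshold, 3 were higher and 1 lower with E. coli, 2 and 2 with IFN-γ, and 4 and 2 with both, beside 10.3%, 21.4% and 31.9% of all genes in either direction, and the counts with IFN-γ and with both are near that background. They had median log2 changes of 0.14, 0.03 and 0.35 beside -0.004, 0 and -0.05 for all genes. Src, a kinase that phosphorylates such tyrosine motifs, rose by 1.90, 2.28 and 3.18, and Malt1, the protease of the Card9 complex, by 0.79, 0.79 and 1.55. Ptpn11, a phosphatase that binds both kinds of motif, rose by 0.67 with E. coli and 0.73 with both. Itpr1, a calcium channel of the endoplasmic reticulum, fell by 1.02, 1.15 and 1.59, and Nfatc2, a transcription factor activated by calcium, fell by 1.12 with IFN-γ and 2.29 with both. Syk rose by 0.61 ± 0.12 with both (adjusted p = 0.00037), and with E. coli and IFN-γ its changes were 0.28 and 0.34, under 1.5-fold. Fcer1g, the adaptor that Clec4e, Clec4d and Clec4n need, had mean counts of 3864 with ACs, 5239 with E. coli, 5343 with IFN-γ and 5396 with both, changes of 0.44, 0.47 and 0.48 that had an adjusted p of at most 0.015 but were under 1.5-fold. Card9 was near the detection limit, with group means of 0.937 to 2.93, and was not tested. With IL-4 none of the 19 was past the threshold in limma, edgeR or DESeq2. That is near the background, as 1.09% of all genes were past it in limma in either direction. In limma 4 of the 19 had an unadjusted p under 0.05, and Fcer1g and Syk had changes of -0.23 and 0.15.

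The ACs libraries of the 2 experiments did not overlap for 6 of the 8 members, 3 higher and 3 lower in the IL-4 experiment, against 22.6% and 19.6% of 10592 genes. Clec4e was 361 to 530 (Type 1) against 869 to 1174 (IL-4), Clec4n 40.0 to 61.8 and 172 to 338, and Clec7a 41.6 to 61.0 and 92.6 to 219.8. Clec12a was 908 to 997 and 543 to 679, Clec4a1 309 to 388 and 180.5 to 201, and Clec4a2 311 to 332 and 139 to 279. Experiment and any other difference between these libraries cannot be told apart, and these values are a description with no test.

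Few other lectin-like genes of the same kind were measured well. Of 22 listed, 4 passed the filter among Type 1 libraries and 5 among the others, with median log2 changes of 0.89 (E. coli), 0.20 (IFN-γ), 0.80 (both) and 0.65 (IL-4). Clec10a, a receptor for galactose and N-acetylgalactosamine and a marker of alternatively activated macrophages, had counts of 59.5 to 97.6 with ACs, 0.84 to 10.6 with E. coli, 73.4 to 73.9 with IFN-γ and 0 to 4.89 with both. In the IL-4 experiment it was 85.7 to 118 with ACs and 512 to 591 with IL-4, a log2 change of 2.44 ± 0.18 (adjusted p = 2e-04). In the Type 1 experiment it fell with E. coli (-4.07) and with both (-4.60), and its change with IFN-γ alone was -0.02. Olr1, a scavenger receptor, rose by 1.57 with E. coli and 2.33 with both, Clec2d, a ligand of natural killer cell receptors, by 1.91 with IFN-γ, and Cd69, an early activation marker, by 0.86 with both.

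Another 11 receptors were listed by name for an inhibitory tyrosine motif, which was not checked gene by gene. Among these 11, all tested, 1 was higher and 1 lower with E. coli, 2 and 5 with IFN-γ, 2 and 3 with both, and 1 and 1 with IL-4, beside 10.3%, 21.4%, 31.9% and 1.09% of all genes in either direction, with median log2 changes of 0.01, -0.38, -0.49 and 0.05. None of these fell as far as Clec12a in the Type 1 comparisons. Siglece, a sialic acid receptor, fell by 2.72 with IFN-γ and 1.77 with both, and Cd300a, which binds phosphatidylserine on dying cells, by 0.69 and 1.23. Siglecf, the receptor used to purify the cells, fell by 0.99 and 0.76. Lair1, a collagen receptor, fell by 1.91 with E. coli and rose by 1.70 with IFN-γ and 2.62 with both. Lilr4b, for which the listed motif is uncertain, rose by 0.72 and 1.29 in the latter 2. The similarly named Lilrb4a had low mean counts of 15.4 with ACs, 11.9 with IFN-γ and 10.6 with both. With IFN-γ alone Pilra and Fcgr2b fell by 0.72 and 0.59, and with E. coli Pilra rose by 1.21. With IL-4 the inhibitory IgG receptor Fcgr2b rose by 0.73, as Clec4a2 did, and Pilra fell by 2.06.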

How the data were processed

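The labels give the group of each library, and the numbers of replicates come from them. The study's methods speak of biological replicates. The labels do not say what was replicated, and p-values measure the spread between these libraries. Values are a signal that the authors deposited, in each library the read count on the gene divided by a DESeq2 size factor of that library. The submitters' processing notes name FastQC 0.11.5, Trim Galore, cutadapt 1.10, TopHat2 2.1.0, Bowtie2 2.2.6, HTSeq 0.6.1, DESeq2 1.26.0 and GRCm38, the methods also describe fastp and STAR, and the strand setting is not given in the sources used here. Size factors assume that most genes do not change. Whole reads were recovered for 100% of values (tolerance 0.01). Symbols were matched for 54409 of 54446 identifiers.

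The model was limma 3.58.1 (R 4.3.3) with a trended prior, on log2(normalized count + 1), which understates changes of low genes, for genes with a mean of at least 10 and with adjustment over all of them. The Type 1 fit had 12 libraries, the IL-4 fit 6 and the differences between them 18. Between groups of 3 an exact permutation test cannot give a two-sided p below 0.1. Intervals are 95% intervals of the fit. Alternatives were a pseudocount of 5, other filters, the replicate number as a block, count models on the recovered reads (DESeq2 1.42.0, edgeR 4.0.16), scaling to the same upper quartile, weights per library, 1 fit of all libraries, p alone as threshold, and libraries left out. The fits were tested on simulated data. All members were described, with the genes of listed pathways past the threshold (at most 6 per list and comparison) and the 3 genes most like each member, of which 1 is not reported here. Members and lists were chosen with earlier results of these data known. Tables were handled with Python 3.11.15, pandas 2.3.3 and numpy 2.4.6.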

Additional observations from a re-analysis of the deposited data

Results flagged for a closer look

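For 5 of the 8 members the response to E. coli differed with and without IFN-γ, by the interaction term of the limma fit on the 12 libraries of the Type 1 experiment. The interaction was -2.39 for Clec4n (adjusted p = 5.9e-06), -1.65 for Clec4e (7.3e-05), 1.55 for Clec12a (0.00047), -1.46 for Clec4a3 (0.0059) and -0.68 for Clec4d (0.038), against 7.44% of all genes past the threshold in either direction. Clec4n, with a normalized count of 629 ± 47.3 (SD, n = 3) under IFN-γ alone and 272 ± 14.7 under both, rose when E. coli was added to ACs and fell when it was added to IFN-γ. For Clec4a3, E. coli alone gave 186 ± 23.8 against 245 ± 38.6 with ACs, and E. coli with IFN-γ gave 36.5 ± 10.1 against 132 ± 24.0 with IFN-γ. The macrophage marker sum was lower with E. coli on both backgrounds, and its part was not tested.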

How the results depend on the processing

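No called result reversed. Under the alternatives, 1757 values of single members stayed on their side of the threshold, 60 lost the call and 23 gained it. With IL-4 the 116 genes past the threshold became 208 with all genes, 74 with the replicate block, 745 with array weights, 212 in edgeR, 209 in DESeq2, 221 with 18 libraries in one fit and 656 without both shallow libraries. The members higher and lower with IL-4, 2 and 2, became 1 and 1 with the replicate block, and the members lower 1 with the common upper quartile. The IL-4 change differed from that of E. coli for 465 genes, for 1738 with array weights and for 736 in DESeq2, and for 1 member higher with all genes in place of 3. It differed from that of IFN-γ for 1529 genes, and for 2773 with array weights. The interaction was called for 756 genes, and for 495 with 18 libraries. With single libraries left out, the ranges were 47 to 130 genes, 0 to 2 members higher and 1 to 3 lower with IL-4, 400 to 1026 genes for the interaction, 3 to 5 members lower against IFN-γ, 1 to 2 higher against E. coli, and 1 to 3 higher for IL-4 minus E. coli. In edgeR the Type 1 comparisons called 1227, 2227 and 3276 genes, beside 1047, 2173 and 3240 in limma. Deviations of equally numbered libraries correlated by -0.089 to 0.085 (18 pairs) and 0.001 to 0.021 (3 pairs). These values give no sign of pairing over the genes tested, but so few pairs cannot exclude it. In the IL-4 experiment replicate 3 was the highest library of both groups for Clec7a, Clec4n, Clec4e and Clec4a3, but not for the other members. Under the block the IL-4 calls of Clec4a1 (adjusted p = 0.086) and Clec4a2 (0.063) were lost. Why the counts changed was not tested, and depth limits the IL-4 experiment most, where 3 reads stood for 15.4 and 16.1 in the shallow libraries.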
